A study of Mus musculus with 6 samples.

Results

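The erythroid and heme synthesis genes described here are 33 genes of the red blood cell programme, taken by name from the 31626 genes of each deposited table. They comprise 5 globins, 8 enzymes of heme synthesis, 10 membrane proteins, 6 regulators and 4 cytosolic proteins. Of these, 32 were found by symbol and 1, Tspo2, by its gene identifier, because the tables carry it under the older symbol Bzrpl1. Each had a value in FPKM (sequenced fragments divided by gene length in kilobases and by the library's mapped total) in every library. The cells were common myeloid progenitors of the mouse, a bone marrow stage that can form granulocytes, monocytes, red cells and platelets. The 3 Dot1l-deleted libraries, labelled Dot1l -/-, came from cells transduced with Cre, and the 3 control libraries from cells labelled Dot1l flox/flox and transduced with a control. Both groups were of the C57Bl/6 strain, had been transformed with MSCV-MN1-IRES-GFP, a retrovirus that carries the leukaemia oncogene MN1 and the marker GFP, and grew in M3234 methylcellulose with FBS, IL3, IL6 and SCF. The labels list no erythropoietin. Cells were sorted at day 7 and their RNA was sequenced with a stranded kit. No Cre-transduced cells with intact Dot1l were among these samples, so Cre and the loss of Dot1l cannot be told apart, and the labels do not say whether the libraries came from separate cultures or animals. Any p-value below therefore speaks for the scatter of these 6 libraries alone, part or all of which may be technical.

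DOT1L is the enzyme that methylates lysine 79 of histone H3 in the body of transcribed genes. Red cell formation is driven by the transcription factors GATA1 and KLF1, which switch on the globin genes, the heme pathway and the proteins of the red cell membrane. Heme synthesis begins with delta-aminolevulinate synthase, made from Alas1 in most tissues and from Alas2 in erythroid cells, and ends when ferrochelatase inserts iron into protoporphyrin. Adult hemoglobin pairs alpha chains with beta chains, and an excess of either is harmful to the red cell.

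Dot1l, the targeted gene, had 8.24, 8.17 and 5.80 FPKM in the Dot1l-deleted libraries, against 20.2, 22.6 and 19.6 FPKM in the control libraries. A gene-level value includes exons outside the deleted part, so residual signal does not measure intact transcript. The third Dot1l-deleted library stood apart: its 10 highest rows held 39.0% of its summed FPKM, against 6.59% to 10.8% in the other 5 libraries, and its median-of-ratios size factor was 0.756, against 1.04 to 1.08. Its values were low for most genes, and over all tested genes the log2 fold change had a median of -0.16 as deposited and 0.0011 after median-of-ratios scaling. FPKM steps of low genes gave relative depths of 0.739 to 0.898 in the Dot1l-deleted libraries and 0.787 to 1 in the control libraries. Progenitor markers were present in every library, and the summed FPKM of the 7 matched of 8 listed was 2286 to 3323 in the Dot1l-deleted libraries and 1758 to 1904 in the control libraries. The list did not move together: Mpo and Fcgr3, which granulocytes and monocytes also use, were called higher, and Cd34, Kit and Gata2 lower. Mpo averaged 2319 FPKM in the Dot1l-deleted libraries and 572 FPKM in the control libraries, and Cd34, a marker of immature cells, 123 FPKM in the Dot1l-deleted libraries and 749.5 FPKM in the control libraries.

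Of the 33 genes, 24 reached a mean of 1 FPKM over the 6 libraries and were tested among 11924 genes with limma on log2(FPKM + 1), with Benjamini-Hochberg adjustment over all of them and a threshold of 0.05. In the Dot1l-deleted cells 7 were called higher and 6 lower, while 11 did not pass. Among all tested genes 7.43% were called higher and 12.2% lower. After median-of-ratios scaling 8 of the 24 were higher and 9 lower, and of all tested genes 2740 were higher and 2661 lower, against 886 and 1459 as deposited. As deposited, the median log2 fold change was -0.11 over the 24 genes and -0.16 over all tested genes. Hba-a1, Hba-a2, Car1 and Aqp1 reached 1 FPKM only through the Dot1l-deleted libraries, which makes a difference in them a condition of being tested. All 33 genes can be compared by whether the groups overlap. In 16 of them every Dot1l-deleted library lay above every control library, in 10 every one lay below, and in 7 the groups overlapped. Among 20568 genes with any value above 0, 12.2% lay above in this way and 23.2% below. These counts use values as deposited, in which the third Dot1l-deleted library was low for most genes, and they can shift with scaling. In bulk RNA, fewer cells of a type and less RNA per cell cannot be told apart.

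**Figure D1:**
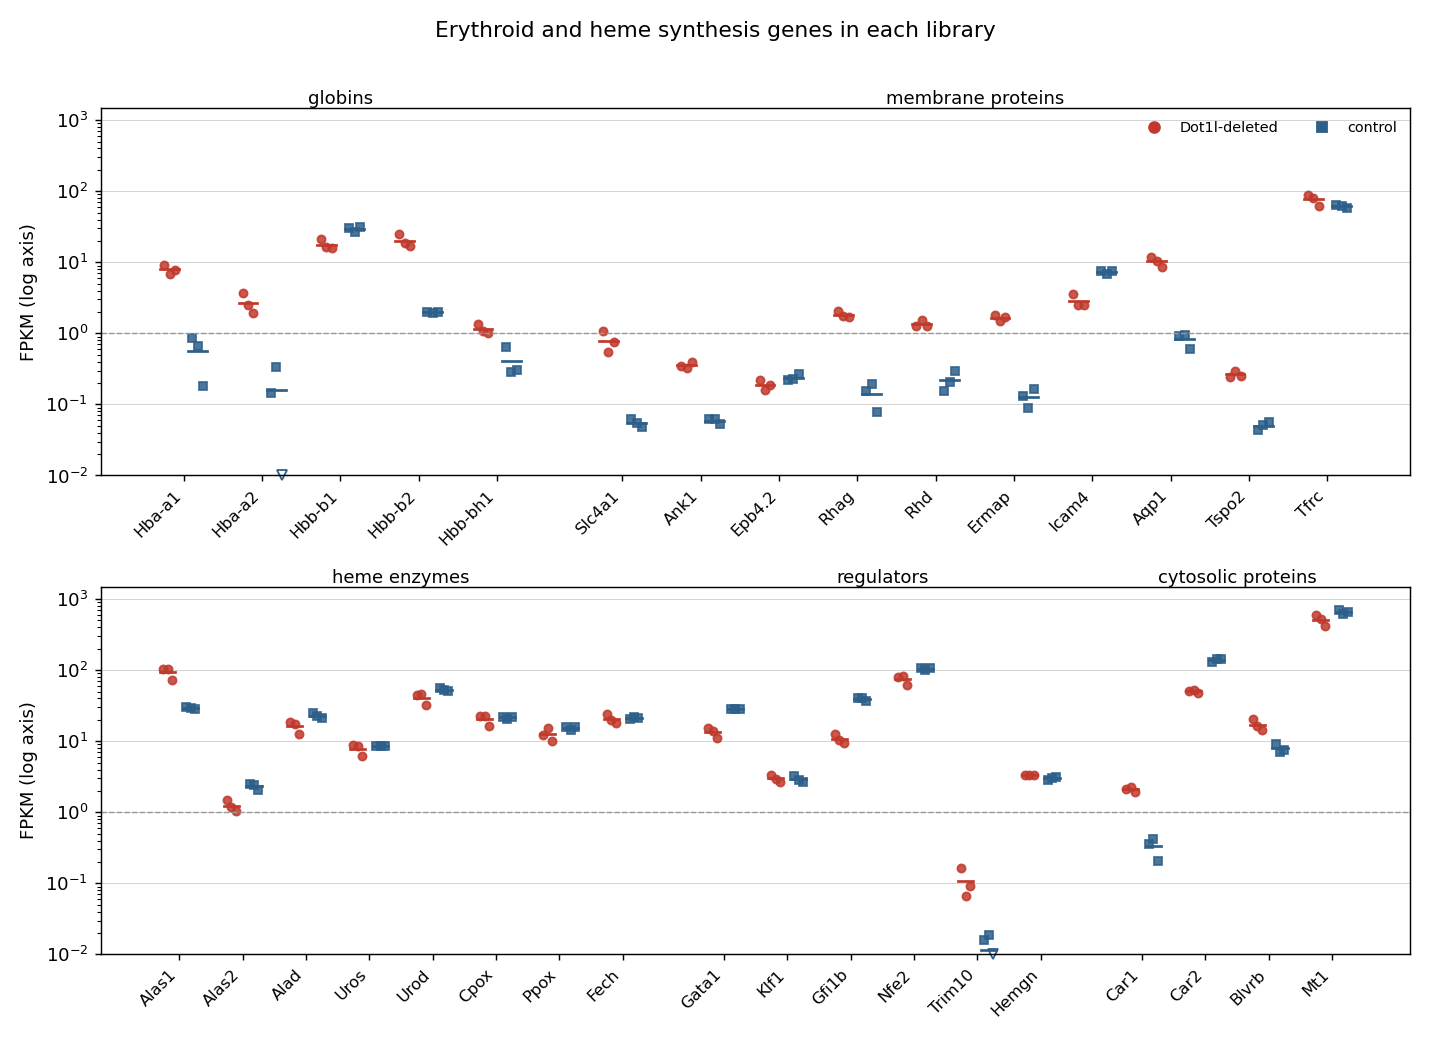
FPKM on a log axis of each of the 33 genes, with a point for each Dot1l-deleted and each control library, horizontal bars for group means, open triangles for values listed at 0 and a dashed line at 1 FPKM. The highest gene is Mt1 (417 to 713 FPKM) and the lowest is Trim10, and the membrane protein genes under 1 FPKM in the control libraries mostly lie higher in the Dot1l-deleted libraries.

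No globin row exceeded 31.3 FPKM in any library. Both alpha globin genes and the beta globin gene Hbb-b2 rose in the Dot1l-deleted cells, whereas its neighbour Hbb-b1 fell. The rows deposited as Hbb-b2 and Hbb-b1 carry the gene identifiers of Hbb-bs and Hbb-bt in the GENCODE M21 annotation. Promoters are shown for the globins because copies of 1 gene pair moved in opposite directions. Each is the 250 bases before the RefSeq start, read 5′ to 3′ on the gene's strand of GRCm38.p6. The files themselves were made on mm9 and hold no positions. Capitals mark GATA words and KLF words found on either strand. A GATA word is AGATAA or AGATAG, or one of the forms that begin with T, namely TGATAA or else TGATAG. A KLF word is CCNCNCCC, where N is any base, and overlapping matches count separately. Hbb-b2 lies at chr7:103827929-103828178 on the minus strand, Hbb-b1 at chr7:103813924-103814173 on the minus strand and Hba-a1 at chr11:32283422-32283671 on the plus strand.
Hbb-b2: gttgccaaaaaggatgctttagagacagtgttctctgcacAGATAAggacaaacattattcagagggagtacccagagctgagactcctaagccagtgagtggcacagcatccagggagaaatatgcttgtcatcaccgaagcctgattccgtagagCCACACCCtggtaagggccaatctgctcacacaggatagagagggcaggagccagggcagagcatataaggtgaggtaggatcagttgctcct
Hbb-b1: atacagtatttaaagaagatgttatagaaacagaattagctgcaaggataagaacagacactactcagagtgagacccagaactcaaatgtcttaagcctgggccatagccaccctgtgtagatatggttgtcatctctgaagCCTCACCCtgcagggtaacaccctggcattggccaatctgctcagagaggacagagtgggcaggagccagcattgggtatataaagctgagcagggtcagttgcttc
Hba-a1: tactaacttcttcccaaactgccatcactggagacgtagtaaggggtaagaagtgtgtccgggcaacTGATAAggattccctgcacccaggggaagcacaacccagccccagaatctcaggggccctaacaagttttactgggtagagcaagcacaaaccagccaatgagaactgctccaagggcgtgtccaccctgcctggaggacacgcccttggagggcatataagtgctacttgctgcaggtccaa
The beta promoters were identical at 178 of 243 aligned bases (73.3%). Hbb-b2 held a GATA word at position -210 from the start and Hbb-b1 held none, while both held 1 KLF word. The Hba-a2 promoter matched that of Hba-a1 at all 247 aligned bases and is not printed. A GATA word was found in 17 of 31 promoters of 26 of the 33 genes and in 26.5% of 32851 mouse promoters, and a KLF word in 17 of the 31 and in 45.9% of all. These matches are descriptions of letters and show no binding.

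Hba-a1, an adult alpha globin gene, had 9.22, 6.76 and 7.82 FPKM in the Dot1l-deleted libraries, against 0.856, 0.669 and 0.181 FPKM in the control libraries. No Dot1l-deleted library came near the controls, and the ratio of means was 13.9 (log2 fold change 2.53, SE 0.204, limma adjusted p = 1.119e-05). Hba-a2, a second copy of the alpha chain gene, had 3.66, 2.51 and 1.96 FPKM in the Dot1l-deleted libraries, against 0.143 and 0.335 FPKM and a value listed at 0 in the control libraries. Its values correspond to 23, 13 and 12 fragments in the Dot1l-deleted libraries, against 1, 2 and 0 fragments in the control libraries, so the groups did not overlap but the control level rests on very few reads (limma log2 fold change 1.66, SE 0.231, adjusted p = 0.000511). Per unit depth the fragments gave a ratio of 16.8 with an exact 95% interval of 5.42 to 84.5, which covers counting error only. Both alpha genes reached the limit of 1 FPKM only through the Dot1l-deleted libraries, so they had to differ to be tested. The longest annotated transcripts of Hba-a1 and Hba-a2 were identical at 99.8% of aligned bases, with a shared run of 415 bases, so how reads were split between them is uncertain. Their sum does not depend on that split, unless shared reads were dropped. It was 12.9, 9.27 and 9.79 FPKM in the Dot1l-deleted libraries, against 0.999, 1.004 and 0.181 FPKM in the control libraries.

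Hbb-b2 had 24.8, 18.8 and 16.8 FPKM in the Dot1l-deleted libraries, against 1.97, 1.95 and 2.02 FPKM in the control libraries. The control libraries were almost equal, all Dot1l-deleted libraries were far above them, and the ratio of means was 10.2 (log2 fold change 2.81, SE 0.158, limma adjusted p = 1.134e-06). Hbb-b1 had 21.1, 16.4 and 15.6 FPKM in the Dot1l-deleted libraries, against 30.2, 26.4 and 31.3 FPKM in the control libraries. Every Dot1l-deleted library was lower, by 1.65-fold in the means (log2 fold change -0.70, SE 0.158, limma adjusted p = 0.0101). The fall did not pass without the first control library (adjusted p = 0.0631) or without the third (adjusted p = 0.0718). Hbb-b2 thus made up 54.1%, 53.3% and 51.8% of the 2 beta rows in the Dot1l-deleted libraries, against 6.12%, 6.88% and 6.07% in the control libraries. The 2 annotated transcripts were identical at 92.7% of aligned bases with a shared run of 430 bases, so the split between them is uncertain too. Their sum was 45.9, 35.2 and 32.5 FPKM in the Dot1l-deleted libraries, against 32.2, 28.4 and 33.3 FPKM in the control libraries, and the groups overlapped.

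Summed alpha FPKM was thus low against summed beta FPKM in all libraries, and less so in the Dot1l-deleted libraries. How reads shared by near-identical copies were counted is not given. If such reads were dropped, the sums would miss part of the RNA, so the level of alpha against beta RNA is uncertain. The log2 ratio of summed alpha to summed beta FPKM was -1.83, -1.93 and -1.73 in the Dot1l-deleted libraries, against -5.01, -4.82 and -7.52 in the control libraries. The difference of means was 3.95 with no overlap (exact two-sided permutation p = 0.1, and no lower p can come from 3 against 3 libraries). Without the third control library, in which 1 of the 2 alpha rows is listed at 0, the difference was 3.09, and with a pseudocount of 1 on both sums it was 2.53. Hbb-bh1, an embryonic beta-like globin, averaged under 1 FPKM over all libraries. It had 1.35, 1.09 and 1.018 FPKM in the Dot1l-deleted libraries, against 0.647, 0.284 and 0.308 FPKM in the control libraries. All Dot1l-deleted libraries were higher, on 36 fragments in the Dot1l-deleted group and 14 in the control group, with a depth-adjusted ratio of 2.70 (exact 95% interval 1.42 to 5.43, counting error only).

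**Figure D2:**
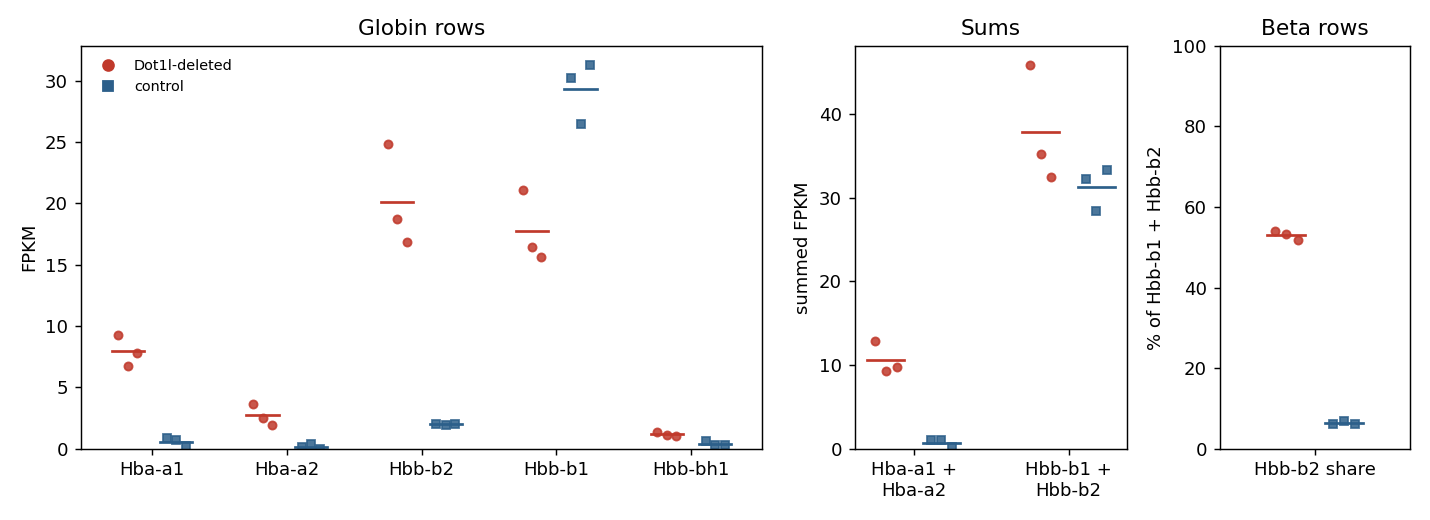
FPKM of the 5 globin genes (left), summed FPKM of the alpha and of the beta rows (middle) and the percentage of the beta sum held by Hbb-b2 (right), on linear axes, with a point per Dot1l-deleted and control library and a bar for each group mean. Hba-a1, Hba-a2 and Hbb-b2 lie 10.2 to 17.02 times higher in the means of the Dot1l-deleted libraries, while Hbb-b1 lies between 15.6 and 21.1 FPKM there and between 26.4 and 31.3 FPKM in the control libraries.

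The 8 heme enzymes split at the first step of the pathway. Alas1, the housekeeping synthase, rose, Alas2, the erythroid synthase, fell, and the 6 later enzymes did not pass the test. The median log2 fold change of the 8 was -0.22, near the -0.16 of all tested genes. Promoters of the synthase pair are shown with the same capitals, Alas1 from chr9:106247955-106248204 on the minus strand and Alas2 from chrX:150547167-150547416 on the plus strand.
Alas1: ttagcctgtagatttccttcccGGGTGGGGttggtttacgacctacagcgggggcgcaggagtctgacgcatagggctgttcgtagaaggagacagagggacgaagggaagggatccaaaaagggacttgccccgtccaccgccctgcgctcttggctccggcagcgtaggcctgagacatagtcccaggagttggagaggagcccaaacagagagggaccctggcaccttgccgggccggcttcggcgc
Alas2: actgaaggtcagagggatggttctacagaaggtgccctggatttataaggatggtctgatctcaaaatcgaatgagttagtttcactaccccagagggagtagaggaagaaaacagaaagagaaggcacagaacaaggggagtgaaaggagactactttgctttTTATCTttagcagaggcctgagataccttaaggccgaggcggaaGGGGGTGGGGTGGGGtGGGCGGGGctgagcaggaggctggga
The Alas2 window held 1 GATA word and 4 KLF words, some of which overlap, and the Alas1 window held no GATA word and 1 KLF word. RefSeq lists a second Alas1 start, not printed, whose window held no GATA word and 2 KLF words.

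Alas1 had 105, 105 and 73.0 FPKM in the Dot1l-deleted libraries, against 30.7, 29.0 and 28.1 FPKM in the control libraries. Even the third Dot1l-deleted library lay far above every control, and the ratio of means was 3.22 (log2 fold change 1.63, SE 0.179, limma adjusted p = 9.802e-05). The antisense transcript 4930500F10Rik, which has no row in the tables, covers 465 of the 6174 exonic bases of Alas1. Alas2 had 1.49, 1.18 and 1.03 FPKM in the Dot1l-deleted libraries, against 2.49, 2.42 and 2.07 FPKM in the control libraries. It was lower in every Dot1l-deleted library, by 1.89-fold in the means (log2 fold change -0.58, SE 0.175, limma adjusted p = 0.0417). That call rests on few libraries: the adjusted p was 0.140 without control 1, 0.111 without control 2, 0.0758 without control 3 and 0.0684 without Dot1l-deleted 2. Apex2 overlaps 311 of the 2403 exonic bases of Alas2 on the opposite strand and had 10.1, 11.7 and 7.64 FPKM in the Dot1l-deleted libraries, against 11.2, 11.8 and 10.7 FPKM in the control libraries. The sources used here do not say whether counting used the strand, and the part of Apex2 reads in the low Alas2 value was not tested. Per library the log2 ratio of Alas2 to Alas1 was -6.13, -6.47 and -6.14 in the Dot1l-deleted libraries, against -3.62, -3.58 and -3.76 in the control libraries. Alas2 thus stood at 1.32% of Alas1 in the Dot1l-deleted cells and at 7.95% in the control cells, and the groups did not overlap (difference -2.59, exact two-sided permutation p = 0.1, again the smallest possible).

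The later enzymes were expressed at intermediate levels. Alad, which joins aminolevulinate molecules into porphobilinogen, had 18.4, 17.3 and 12.7 FPKM in the Dot1l-deleted libraries, against 25.1, 22.4 and 21.4 FPKM in the control libraries. All 3 Dot1l-deleted values were lower, but the limma test did not pass as deposited (log2 fold change -0.50, adjusted p = 0.0600) and did after scaling (-0.32, adjusted p = 0.00471) or without Dot1l-deleted 3 (-0.35, adjusted p = 0.0253). Urod, the decarboxylase that makes coproporphyrinogen, had 44.8, 45.7 and 32.2 FPKM in the Dot1l-deleted libraries, against 55.9, 52.4 and 51.5 FPKM in the control libraries. It likewise did not overlap. It was not called as deposited (log2 fold change -0.39, limma adjusted p = 0.151), but was after scaling (-0.21, adjusted p = 0.00426) and, as deposited, without Dot1l-deleted 3 (-0.23, adjusted p = 0.0207). Uros, the uroporphyrinogen synthase, had 8.76, 8.68 and 6.11 FPKM in the Dot1l-deleted libraries, against 8.67, 8.53 and 8.64 FPKM in the control libraries. Apart from the third Dot1l-deleted library its values were alike. Cpox, the coproporphyrinogen oxidase of mitochondria, had 22.4, 23.0 and 16.5 FPKM in the Dot1l-deleted libraries, against 22.2, 20.8 and 21.9 FPKM in the control libraries. Fech, the ferrochelatase, had 24.4, 19.7 and 17.9 FPKM in the Dot1l-deleted libraries, against 20.8, 21.7 and 21.3 FPKM in the control libraries. Uros, Cpox and Fech overlapped between groups, with log2 fold changes of -0.13, -0.08 and -0.05 that turned positive after scaling (0.03, 0.10 and 0.13) and passed in neither fit. Ppox, the protoporphyrinogen oxidase, also overlapped, with 12.3, 15.1 and 10.1 FPKM in the Dot1l-deleted libraries, against 15.9, 14.6 and 16.1 FPKM in the control libraries. B4galt3 shares 791 of the 4515 exonic bases of Ppox on the opposite strand, so reads of the 2 genes may be mixed, as may those of Cpox and Gpr15, which share 204 of 6661.

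**Figure D3:**
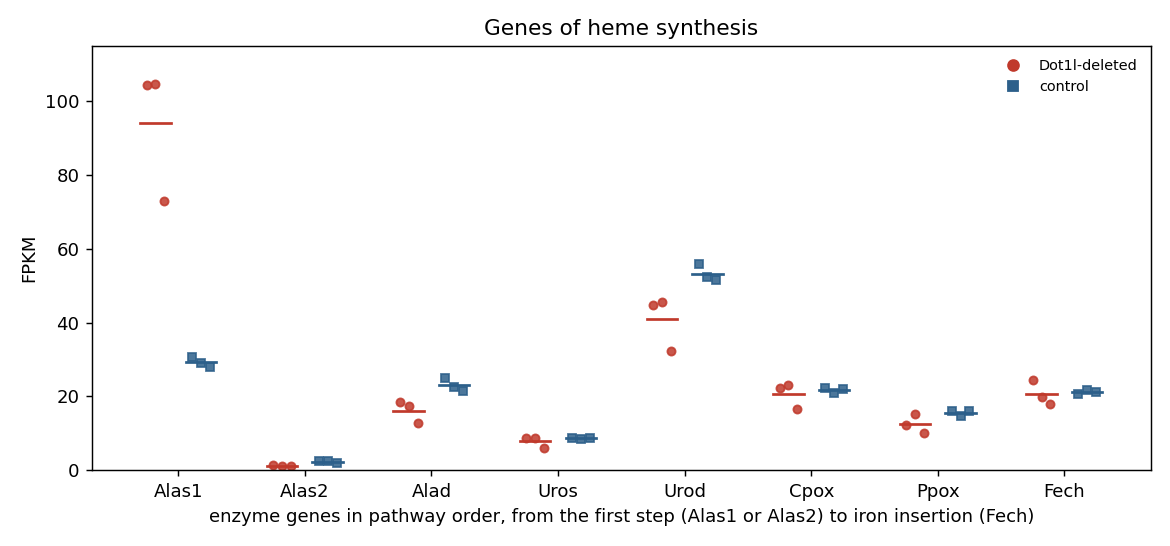
FPKM on a linear axis of the 8 heme enzymes in pathway order, with a point per Dot1l-deleted and control library and a bar for each group mean. Alas1 stands higher in the Dot1l-deleted libraries (73.0 to 105 FPKM, against 28.1 to 30.7 FPKM in the control libraries), and Alas2 is the lowest gene shown, with 1.03 to 1.49 FPKM in the Dot1l-deleted libraries and 2.07 to 2.49 FPKM in the control libraries.

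Among the 10 membrane proteins most were scarcely expressed, and of the 3 with a mean of at least 1 FPKM Aqp1 rose, Icam4 fell and Tfrc did not pass. Aqp1, the water channel of the red cell membrane, had 11.9, 10.5 and 8.59 FPKM in the Dot1l-deleted libraries, against 0.918, 0.951 and 0.609 FPKM in the control libraries. The groups were far apart, and the ratio of means was 12.5 (log2 fold change 2.63, SE 0.167, limma adjusted p = 2.532e-06). Aqp1 reached the limit of 1 FPKM only through the Dot1l-deleted libraries, so it had to differ to be tested. Icam4, an adhesion protein of the red cell surface that carries the LW blood group in humans, had 3.61, 2.47 and 2.51 FPKM in the Dot1l-deleted libraries, against 7.49, 6.86 and 7.49 FPKM in the control libraries. It was 2.54-fold lower with no overlap (log2 fold change -1.11, SE 0.156, limma adjusted p = 0.000551). The antisense transcript Gm47079 covers all 1110 exonic bases of Icam4 and has no row in the tables, so their reads cannot be told apart without strand. Tfrc, the transferrin receptor through which cells take up iron, had 89.7, 80.0 and 62.6 FPKM in the Dot1l-deleted libraries, against 63.9, 62.6 and 58.1 FPKM in the control libraries. The groups overlapped only through the third Dot1l-deleted library, and Tfrc was called higher after scaling (log2 fold change 0.49, limma adjusted p = 0.000587) and without Dot1l-deleted 3 (0.46, adjusted p = 0.00773), but not as deposited (0.31, adjusted p = 0.248).

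The other 7 membrane proteins averaged under 1 FPKM, and in 6 of them all Dot1l-deleted values lay above all control values. Rhag, the ammonia channel of the Rh complex, had 2.09, 1.76 and 1.68 FPKM in the Dot1l-deleted libraries, against 0.153, 0.197 and 0.0776 FPKM in the control libraries. These values stand for 304 fragments in the Dot1l-deleted group and 25 in the control group, a depth-adjusted ratio of 12.8 (exact 95% interval 8.50 to 20.1, counting error only). Rhd, its partner in that complex, had 1.28, 1.55 and 1.29 FPKM in the Dot1l-deleted libraries, against 0.153, 0.209 and 0.292 FPKM in the control libraries, a fragment ratio of 6.41 (4.06 to 10.6). Slc4a1, the band 3 anion exchanger, had 1.07, 0.541 and 0.757 FPKM in the Dot1l-deleted libraries, against 0.0615, 0.0541 and 0.0489 FPKM in the control libraries. With 263 fragments in the Dot1l-deleted group and 19 in the control group, its ratio was 14.6 (9.14 to 24.6), with a wide spread among the Dot1l-deleted libraries. Ermap, an immunoglobulin-family protein of the erythroid membrane, had 1.81, 1.51 and 1.68 FPKM in the Dot1l-deleted libraries, against 0.131, 0.0905 and 0.163 FPKM in the control libraries. Ank1, the ankyrin that ties the spectrin skeleton to band 3, had 0.352, 0.323 and 0.390 FPKM in the Dot1l-deleted libraries, against 0.0620, 0.0626 and 0.0536 FPKM in the control libraries, and 862 of its 13527 exonic bases lie under the antisense Gm15816. Ermap and Ank1 were thus both clearly separated, with Ank1 5.98-fold higher in the means and Ermap 13.02-fold. Tspo2, an erythroid protein that handles cholesterol and porphyrins, rested on 5 fragments in each Dot1l-deleted library against 1 in each control library, a ratio of 5.26 with a wide interval (1.49 to 28.3). Epb4.2, protein 4.2 of the membrane skeleton, overlapped, with 0.221, 0.159 and 0.186 FPKM in the Dot1l-deleted libraries, against 0.217, 0.229 and 0.270 FPKM in the control libraries.

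Of the 9 of the 33 genes under a mean of 1 FPKM, 8 lay wholly higher in the Dot1l-deleted libraries and none wholly lower. Among 4901 genes with a mean of 0.05 to 1 FPKM, 19.9% lay wholly higher. Lowering the limit to a mean of 0.1 FPKM let 32 of the 33 genes be tested with limma, and 14 were called higher and 6 lower. Of all 15733 genes tested at that limit, 7.93% were called higher and 9.72% lower. The 7 calls that this added were Hbb-bh1, Ermap, Slc4a1, Rhd, Rhag, Tspo2 and Ank1. Of these, Slc4a1, Tspo2 and Ank1 reached 0.1 FPKM only through the Dot1l-deleted libraries, so they had to differ to be tested.

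Of 5 regulators tested, Gata1 and Gfi1b fell, 0 were called higher by limma, with 0 at an unadjusted p under 0.05, and their median log2 fold change was -0.50. Gata1, the master transcription factor of red cells and megakaryocytes, had 15.3, 14.2 and 11.2 FPKM in the Dot1l-deleted libraries, against 28.8, 28.8 and 28.1 FPKM in the control libraries. Every Dot1l-deleted library lay well below the controls, which were nearly equal, and the means were 2.11-fold lower (log2 fold change -1.03, SE 0.150, limma adjusted p = 0.000679). Gfi1b, a repressor needed for red cell and platelet formation, had 12.8, 10.4 and 9.44 FPKM in the Dot1l-deleted libraries, against 41.1, 40.5 and 36.4 FPKM in the control libraries. It was 3.61-fold lower (log2 fold change -1.77, SE 0.153, limma adjusted p = 1.761e-05), the largest fall among the 24 genes tested. Nfe2, the erythroid subunit of the NF-E2 factor, had 79.2, 84.0 and 61.0 FPKM in the Dot1l-deleted libraries, against 107, 102 and 107 FPKM in the control libraries. All were lower in the Dot1l-deleted libraries, but limma did not call Nfe2 as deposited (log2 fold change -0.50, adjusted p = 0.0671). It did after scaling (-0.32, adjusted p = 0.00164) and, as deposited, without Dot1l-deleted 3 (-0.36, adjusted p = 0.00458). Klf1, the activator of the adult beta globin gene, had 3.31, 2.97 and 2.71 FPKM in the Dot1l-deleted libraries, against 3.24, 2.80 and 2.67 FPKM in the control libraries. The groups lay on top of each other (log2 fold change 0.03, SE 0.153, limma adjusted p = 0.896). Hemgn, a nuclear protein of blood progenitors, had 3.39, 3.34 and 3.31 FPKM in the Dot1l-deleted libraries, against 2.86, 3.07 and 3.11 FPKM in the control libraries, a gap that did not pass (adjusted p = 0.601). Trim10, a RING protein of late red cells, stood at 9, 3 and 5 fragments in the Dot1l-deleted libraries, against 1, 1 and 0 in the control libraries, and is best read as barely detected.

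**Figure D4:**
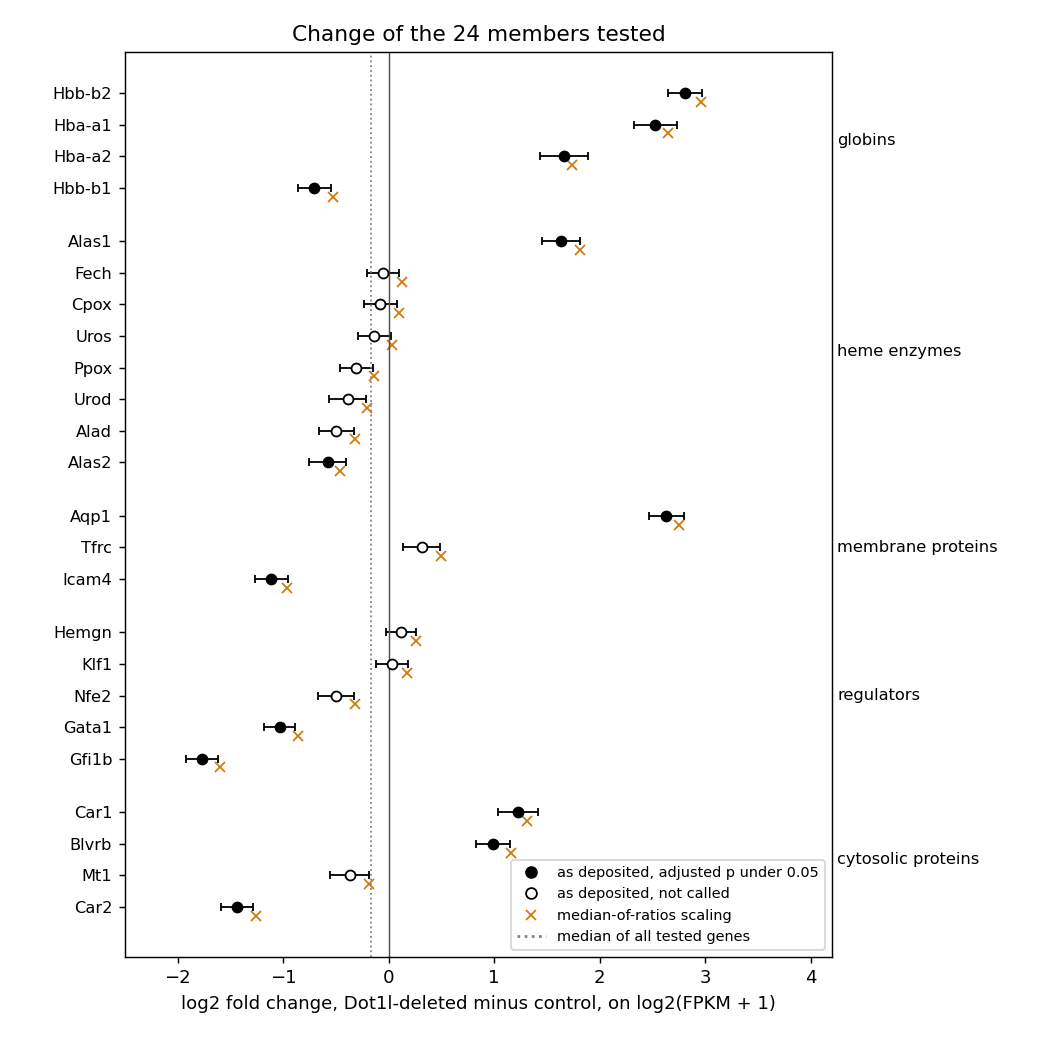
Log2 fold change (Dot1l-deleted minus control, on log2(FPKM + 1), with standard error) of each of the 24 tested genes by subgroup, as deposited (circles, filled where called) and after median-of-ratios scaling (crosses), with a dotted line at the median of all tested genes as deposited. Scaling moves every value up, and Hbb-b2 (2.81) and Gfi1b (-1.77) mark the extremes as deposited.

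Among the cytosolic proteins, Car1 and Blvrb rose, Car2 fell and Mt1 did not pass. Car1, the carbonic anhydrase of adult red cells, had 2.13, 2.27 and 1.92 FPKM in the Dot1l-deleted libraries, against 0.362, 0.424 and 0.209 FPKM in the control libraries. It was 6.35-fold higher with no overlap (log2 fold change 1.22, SE 0.191, limma adjusted p = 0.00112). Car1 reached the limit of 1 FPKM only through the Dot1l-deleted libraries, so it had to differ to be tested. Car2, the more widely expressed carbonic anhydrase, had 51.4, 53.3 and 47.9 FPKM in the Dot1l-deleted libraries, against 131, 144 and 143 FPKM in the control libraries. Thus the more abundant of the 2 enzymes moved the other way, 2.74-fold lower (log2 fold change -1.44, SE 0.152, limma adjusted p = 7.467e-05). Blvrb, the biliverdin reductase of red cells, had 20.4, 16.3 and 14.2 FPKM in the Dot1l-deleted libraries, against 9.23, 7.17 and 7.60 FPKM in the control libraries. It was 2.12-fold higher (log2 fold change 0.99, SE 0.163, limma adjusted p = 0.00165). Mt1, a metal-binding metallothionein, had 607, 525 and 417 FPKM in the Dot1l-deleted libraries, against 713, 612 and 659 FPKM in the control libraries. As deposited, all 3 of its Dot1l-deleted values lay below the controls, with a limma adjusted p of 0.205. After scaling the log2 fold change of Mt1 was -0.19 (limma adjusted p = 0.0909).

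Other genes of the pathway were taken from lists of related genes, and calls in them are read with limma as above. For comparison, 7.43% of all 11924 tested genes were called higher and 12.2% lower as deposited. After scaling, 2740 of all tested genes were called higher and 2661 lower, so calls became more frequent in general. Of 17 other erythroid regulators tested (of 19 listed), 1 was called higher and 5 lower, or 4 and 9 after scaling. Gata2, the progenitor GATA factor, had 67.7, 64.0 and 50.3 FPKM in the Dot1l-deleted libraries, against 130, 132 and 125 FPKM in the control libraries (log2 fold change -1.08, adjusted p = 0.00110). Tal1, a partner of GATA1 in one complex, fell as well (-0.89, adjusted p = 0.00204), and Lyl1, a relative of Tal1, rose 2.42-fold (1.22, adjusted p = 0.000886). Of 25 other heme and iron genes tested (of 29 listed), 4 were called higher and 5 lower, or 10 and 7 after scaling. The 5 lower calls fell to 1 without any one of the controls and to 2 without Dot1l-deleted 2. Slc40a1, the iron exporter ferroportin, had 7.33, 8.70 and 7.77 FPKM in the Dot1l-deleted libraries, against 0.741, 0.988 and 0.942 FPKM in the control libraries, an 8.91-fold rise (2.24, adjusted p = 3.768e-06). Hfe, which tunes iron uptake, rose 5.09-fold, and Ireb2, an iron-sensing regulator of RNAs, rose 3.34-fold. Of 13 other membrane, skeleton and late genes tested (of 26 listed), 2 were called higher and 2 lower, or 6 and 4 after scaling. Without single libraries the lower calls ranged from 0 to 4. Cd24a, a surface protein of maturing blood cells, rose 3.73-fold (adjusted p = 1.255e-05), and Bpgm, which makes the bisphosphoglycerate that loosens oxygen binding, fell (-0.73, adjusted p = 0.00697). Of the 3 other metallothionein-related genes tested, limma called 0 as deposited, with 1 (Mt2) at an unadjusted p under 0.05, while scaling called 1 higher and 1 lower. Mt2, a close relative of Mt1, had 138, 124 and 102 FPKM in the Dot1l-deleted libraries, against 197, 151 and 191 FPKM in the control libraries (log2 fold change -0.57, adjusted p = 0.0588).

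Markers of other blood cells moved with the groups. Of all tested genes, 7.43% were called higher and 12.2% lower as deposited. All 9 matched of 10 neutrophil markers were called higher, and their summed FPKM was 21476 to 25717 in the Dot1l-deleted libraries and 1113 to 1360 in the control libraries. Of these, Fcnb and Ltf had control means of 0.199 and 0.695 FPKM. Both reached the limit of 1 FPKM only through the Dot1l-deleted libraries, so they had to differ to be tested. The 8 monocyte and macrophage markers summed to 953 to 1273 in the Dot1l-deleted libraries and 174 to 196 in the control libraries, with 5 of 7 tested called higher and 1, Ccr2, lower. Csf1r, among those called higher, had a control mean of 0.507 FPKM and likewise had to differ to be tested. Megakaryocyte markers, 9 genes of which Gp6 was listed at 0 in every library, summed to 103 to 131 FPKM in the Dot1l-deleted libraries and 213 to 223 FPKM in the control libraries. Of 5 tested, Pf4 and Ppbp were called higher and Itga2b and F2r lower. Ppbp, with a control mean of 0.184 FPKM, also had to differ to be tested. The 7 mast cell and basophil markers summed to 1568 to 2265 FPKM in the Dot1l-deleted libraries and 2479 to 2731 FPKM in the control libraries, with 3 of 5 tested called lower. Most of that sum was Cpa3, which was not called (limma adjusted p = 0.176). Mcpt8 went the other way, with a mean of 74.3 FPKM in the Dot1l-deleted libraries and 51.9 FPKM in the control libraries, as did the low gene Il4. After scaling 1 of the 5 was called higher and 3 lower. Gata1 and Gata2 also act in megakaryocytes and mast cells, and Gfi1b in megakaryocytes. Eosinophil markers were scarce, at 5.67 to 7.89 FPKM in the Dot1l-deleted libraries and 0.783 to 1.46 FPKM in the control libraries. The B cell list summed to 4.09 to 5.60 FPKM in the Dot1l-deleted libraries and 1.41 to 1.83 FPKM in the control libraries, and the T and NK cell list, with Ncr1 listed at 0, to 0.208 to 0.381 FPKM in the Dot1l-deleted libraries and 0 to 0.0411 FPKM in the control libraries. The part of these other cells in the changes of the erythroid and heme genes was not tested.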

How the data were processed

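RNA of 6 samples was measured, 3 Dot1l-deleted and 3 control. The authors deposited values in FPKM, 1 for each Ensembl gene in each library. Tools named per the submitters' processing notes are Cuffdiff, SAMtools, GSNAP and CASAVA 1.8.2, with the build mm9. Their roles, and whether strand was used in counting, are not given in the sources used here. A value of 999999999, read as a failed estimate, stood in 378 genes, none of them described here, which were left out. limma 3.58.1 (R 4.3.3, eBayes with trend, two-sided) was run on log2(FPKM + 1) of genes with a mean of at least 1 FPKM, without further scaling, and p-values were adjusted over all tested genes. Log2 fold changes on this scale understate the change of low genes, and other folds compare mean FPKM. For 8 low genes whose FPKM came out as whole multiples of the value of 1 fragment (tolerance 0.02), fragments were counted. The same step gave whole numbers for 3348 of 5311 low genes (63.0%). FPKM gives no depth otherwise. The fitting script was tested on simulated data. Promoters came from RefSeq and GENCODE M21 gave the overlaps, both on GRCm38, so no position of the mm9 files was used. All of the erythroid and heme genes were described. From each related list up to 3 genes with the smallest adjusted p were named, apart from any not reported here, and Mt2 was named after its values were seen. The erythroid and heme genes and the related lists were chosen with earlier results of these data known. Alternatives covered the pseudocount, filter, scaling, variance model, library weights, replicate block and single libraries left out.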

Additional observations from a re-analysis of the deposited data

How the results depend on the processing

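Counts over all tested genes moved with the scaling and the filter. The count called higher was 886 as deposited, 2740 with median-of-ratios scaling, 2412 with quantile normalization, 2531 with library weights, 1342 with no filter and 2333 with scaling and that library left out, the last chosen after seeing the data. The count called lower was 1459 as deposited and 2661, 3196, 3185 and 2236 with scaling, quantile normalization, weights and scaling without that library. With each library left out in turn, 661 to 2069 genes were called higher and 763 to 2504 lower. Of the 33 genes, 14 were called higher with no filter and with a limit of 0.1 FPKM, and 10 were called lower with quantile normalization and with weights. Heme enzymes called lower numbered 3 with scaling, quantile normalization, weights, or scaling without the third Dot1l-deleted library, 2 with rows of 1 symbol summed, and 0 to 3 with single libraries left out. Membrane proteins called higher numbered 7 with no filter or a limit of 0.1 FPKM, 2 with scaling, quantile normalization, weights or scaling without that library, and 1 to 2 with single libraries left out. Globins called lower numbered 0 to 1 with single libraries left out, and cytosolic proteins called lower 2 with quantile normalization or weights. Of the log2 fold changes, 4 changed sign. Uros was 0.0279 with scaling, 0.00684 with weights and 0.0414 with scaling without the third Dot1l-deleted library, against -0.13 as deposited. Cpox was 0.0959, 0.0845 and 0.0696 with scaling, quantile normalization and weights and 0.0933 with scaling without that library, against -0.08. Fech was 0.127 and 0.119 with scaling and quantile normalization and 0.0716 with scaling without that library, against -0.05. With single libraries left out Uros ranged -0.213 to 0.0158, Cpox -0.162 to 0.0658, Fech -0.170 to 0.0441 and Klf1 -0.0220 to 0.0959. The cause was not tested. Libraries of the same number did not deviate together (correlations -0.03, -0.04 and 0.01). The labels do not say whether a number marks a shared culture, and correlations over so few libraries cannot decide it. With the replicate block 1152 genes were called higher and 1801 lower, of the 33 genes 7 higher and 7 lower, and 2 heme enzymes lower, and the Alas2 to Alas1 difference was -2.59. Some genes under 1 FPKM rest on few fragments, as Tspo2 with 15 in the Dot1l-deleted group and 3 in the control group. Others rest on more, as Rhag with 304 and 25.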

Other observations

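A further globin outside the 33 genes, picked after its values were seen, moved in the same direction as Hbb-b2. Hbb-y, the embryonic epsilon-like globin, had 4.34, 6.75 and 5.53 FPKM in the Dot1l-deleted libraries, against 0.701, 0.914 and 0.891 FPKM in the control libraries. The groups did not overlap and the ratio of means was 6.63 (log2 fold change 1.82, SE 0.181, limma adjusted p = 5.024e-05). With a control mean of 0.835 FPKM, Hbb-y reached the limit of 1 FPKM only through the Dot1l-deleted libraries. It had to differ to be tested, so that p-value adds no support. Late erythroid genes of the related list that averaged under 1 FPKM were also picked after their values were seen. Kel, which carries the Kell blood group in humans, had 0.873, 1.196 and 0.881 FPKM in the Dot1l-deleted libraries, against 0.143, 0.150 and 0.0543 FPKM in the control libraries. Spna1, the erythroid alpha spectrin, had 0.377, 0.237 and 0.292 FPKM in the Dot1l-deleted libraries, against 0.0376, 0.0538 and 0.0371 FPKM in the control libraries. Pklr, the red cell and liver pyruvate kinase, had 0.580, 0.574 and 0.593 FPKM in the Dot1l-deleted libraries, against 0.0291 and 0.0511 FPKM and a value listed at 0 in the control libraries. Tmod1, a cap of actin filaments in the membrane skeleton, went the other way, with 0.0836, 0.129 and 0.0698 FPKM in the Dot1l-deleted libraries, against 0.238, 0.307 and 0.217 FPKM in the control libraries.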
